A study of Mus musculus with 8 samples.

Results

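Control mouse liver was compared between day 5 and day 2 after a single dose of the mitogen TCPOBOP, with 1 array of pooled liver RNA for each day, 2 of the 8 arrays of the series, over the 12112 of 18193 named genes that passed a filter on signal. All genes with enough signal over the 8 arrays entered the counts, and the genes named singly are mostly those with the largest differences between these days. The control mice were littermates of the genotype Metff/ff:ERCre+/+, in which both Met alleles are floxed and Cre acts only after tamoxifen. They were injected with the corn oil vehicle and no tamoxifen, ate no canertinib, and received TCPOBOP at 3 mg/kg by gavage. Control arrays of days 0 and 1, made from pools of liver taken on those days, are quoted beside them, so that a course over days compares separate pools. Mice of the same genotype formed the other arm, MET KO + EGFRi. They had 5 daily injections of tamoxifen (100 µl at 10 mg/ml) to delete Met, and canertinib, an EGFR inhibitor, in the diet at an intended 80 mg/kg per day from 1 day before TCPOBOP, which was given at least 5 days after the last tamoxifen. That arm was sampled on the same days and is quoted where its values are set beside those of control. The labels do not say how many livers went into a pool, nor if the mice of day 0 had been dosed.

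TCPOBOP binds the constitutive androstane receptor CAR (Nr1i3), a nuclear receptor of hepatocytes that switches on genes for the uptake, oxidation, conjugation and export of drugs. In mouse liver the same ligand drives hepatocytes into the cell cycle without prior injury. The liver enlarges, divisions then cease, and the drug metabolism genes can stay on for as long as the ligand remains. Genes of DNA synthesis and mitosis are transcribed in waves and are shut off by repressor complexes in cells that leave the cycle.

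The labelled tissue matched its markers. All 7 measured hepatocyte markers, among them albumin (Alb) and transthyretin (Ttr), lay among strong signals, with Alb at 42800.0 on day 2 and 77082 on day 5. The CAR target Cyp2b10, a cytochrome P450, had a signal of 444, 38898, 33939 and 45578 in control liver on days 0, 1, 2 and 5, so that both arrays compared here came from liver in which the receptor's main target was high. Markers of pancreas, adipose tissue and muscle, which liver should lack, were measured in part: of 10 with a probe set, 4 passed the filter, and all 4 were higher on day 5 (median log2 difference 0.473). The pancreatic protease gene Ctrb1 had 123, 755, 109 and 647 in control on days 0, 1, 2 and 5 and 113, 93.5, 655 and 549.5 in MET KO + EGFRi. For the related Prss2 the main probe set gave 0.66 and the second 2.75, at 868, 210.1, 105 and 1114. The summed signal of the 4 was 2334, 3380.3, 2278 and 3541, and their part in the differences was not tested.

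Median signals over all probe sets were 224 on day 2 and 243 on day 5, and actin gave 3'/5' ratios of 1.87 and 1.69. No group has a replicate, so no value below has an error between animals. Differences are given on a log2 scale after adding 71 to each signal, which understates those of weak genes, and a gene is counted when it differs at least 2-fold on that scale.

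By that count, 335 genes (2.77 percent of 12112) were higher and 268 (2.21 percent) lower on day 5 than on day 2, and the median difference of all genes was 0.043. Of all genes 54.3 percent had a difference above 0 and 45.6 percent one below 0, which is the background for the counts of list members below. Genes of mitosis and DNA synthesis were among the largest decreases, and outputs of the circadian clock and the lipid receptor gene Ppara were lower too. The 18 measured CAR-induced enzymes of phase I drug metabolism stayed within 2-fold, while 2 of 21 phase II enzymes and transporters were at least 2-fold lower. Most of the largest increases were in genes whose lowest control signal was that of day 2. For scale, the arrays of days 1 and 2 of control liver differed at least 2-fold in 154 genes one way and 190 the other, and those of days 5 and 2 in MET KO + EGFRi in 170 higher and 207 lower.

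**Figure D1:**
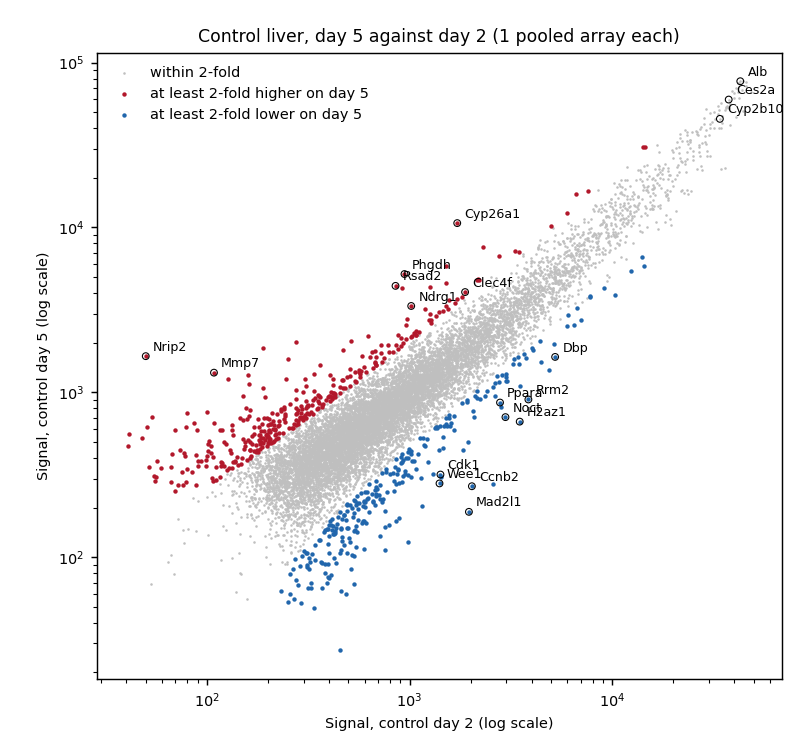
Signal of each of 12112 genes in control liver on day 2 (horizontal) and day 5 (vertical), both on log axes, 1 pooled array each, with genes at least 2-fold higher on day 5 in red and at least 2-fold lower in blue. Mad2l1 and Ccnb2 lie far below the main band and Nrip2 far above it, while Cyp2b10, Ces2a and Alb sit at the upper end of the signals within 2-fold.

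Mitotic genes stood first among the decreases. Promoters of 4 members are shown because they hold letters that such promoters share. They are the CHR core TTTGAA, through which the DREAM and MuvB complexes switch mitotic genes off and on, and the CCAAT box, bound by the factor NF-Y. The stretches lie within 250 bases before an annotated start (RefSeq, GRCm38.p6, all on the minus strand), run 5′ to 3′, and carry the matches to these letters on either strand in capitals (a CCAAT box on the other strand reads ATTGG). They are chr9:70421556-70421736 for Ccnb2, chr10:69352913-69353135 for Cdk1, chr4:118437344-118437411 for Cdc20 and chr3:27153858-27154007 for Ect2.
Ccnb2: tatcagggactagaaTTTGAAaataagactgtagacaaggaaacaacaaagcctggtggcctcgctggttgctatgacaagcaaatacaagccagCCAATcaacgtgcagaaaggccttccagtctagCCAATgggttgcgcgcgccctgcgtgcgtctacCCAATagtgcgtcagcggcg
Cdk1: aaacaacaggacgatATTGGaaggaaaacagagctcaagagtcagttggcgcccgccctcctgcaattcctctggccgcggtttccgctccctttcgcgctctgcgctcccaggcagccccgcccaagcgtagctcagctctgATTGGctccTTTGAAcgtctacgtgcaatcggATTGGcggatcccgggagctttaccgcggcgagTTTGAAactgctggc
Cdc20: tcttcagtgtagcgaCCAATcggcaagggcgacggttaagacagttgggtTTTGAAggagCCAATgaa
Ect2: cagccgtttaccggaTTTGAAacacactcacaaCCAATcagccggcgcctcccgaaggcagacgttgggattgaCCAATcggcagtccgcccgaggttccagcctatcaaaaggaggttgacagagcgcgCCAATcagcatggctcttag
Among 23 measured members of the G2/M and mitosis list with an entry in the promoter table, 9 (39.1 percent) held TTTGAA and 19 (82.6 percent) held CCAAT in those 250 bases on either strand. Over the 27025 genes of the table the shares were 18.3 and 37.5 percent. Of the 6 mitosis members at least 2-fold lower on day 5, 4 held TTTGAA, which are the 4 shown, and 5 held CCAAT. Of 21 members of the DNA replication list, 2 (9.52 percent) held TTTGAA and 12 (57.1 percent) CCAAT. Of the 4 at least 2-fold lower in that list, 0 held TTTGAA and 3 CCAAT. A match is a description of the letters, and binding was not measured.

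Mad2l1, a spindle checkpoint protein that delays chromosome separation, had a signal of 158, 530.5, 1963 and 188 in control on days 0, 1, 2 and 5, a log2 difference of -2.97 between days 5 and 2. Ccnb2, the mitotic cyclin B2, had 40.7, 424, 2030.4 and 269 (difference -2.63). Its partner kinase Cdk1 had 95.0, 784, 1421 and 317 (-1.94). In each of these genes day 2 was the highest of all 8 arrays, and Mad2l1 was back near its day 0 signal by day 5, while Ccnb2 and Cdk1 were still above theirs. Cdc20, an activator of the complex that starts anaphase, had 283, 1469.9, 2840.5 and 816 (-1.72, and -1.19 on a second probe set). Ect2, needed for the cleavage furrow, had 86.9, 501, 1076 and 344 (-1.47), and the kinetochore gene Spc25 549.6, 856, 983 and 316 (-1.45, but 0.17 on its second probe set). Each of these 6 mitotic genes was at least 2-fold lower on day 5. The proliferation marker Mki67, at 192, 447, 636 and 297, was just short of that size (-0.94).

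Of the 28 measured members of this list, 20 were lower and 8 higher on day 5, with a median difference of -0.44 against 0.043 over all genes. The 6 named above were at least 2-fold lower, and the centromere histone Cenpa (428 and 938, difference 1.01) was 2-fold higher. Members such as Foxm1, a transcription factor of mitotic genes (1122, 959, 1199.8 and 1409 on days 0, 1, 2 and 5), and Pttg1, the anaphase inhibitor securin (4607, 3579, 3972 and 5304), showed no peak on day 2. The list was formed with a filter on the mean over all 8 arrays, passed by 28 of 42 members with a probe set. A member high on day 2 could pass through that array, which favours decreases, and this was not tested. The size of the median depended on the filter. The 9 members whose mean over all 8 arrays reached the upper quartile had a median of 0.22, and the other 19 had -0.71, with 1 and 5 of them at least 2-fold lower.

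DNA replication genes were lower in 18 of 23 measured members, with a median of -0.53. These 23, of 35 with a probe set, had passed the same filter. Rrm2, the regulated subunit of ribonucleotide reductase that supplies DNA precursors, had 551, 3684, 3857 and 905 on days 0, 1, 2 and 5 (difference -2.01), and 2 of its 3 probe sets were at least 2-fold lower. The sliding clamp Pcna had 1509, 3359.5, 2774 and 1157 (-1.21). The primase subunit Prim1 had 715, 1225, 1329.6 and 609 (-1.04) and the dUTPase Dut 376, 385, 553 and 234 (-1.04). These 4 were the members at least 2-fold lower, and in Pcna, Prim1 and Dut the day 5 signal was below that of day 0. Rrm2 and Pcna were already high on day 1, whereas Mad2l1 and Ccnb2 were several times higher on day 2 than on day 1.

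The histone variant H2az1, which is not in the lists, followed the same course with 586, 1439.6, 3496 and 664 (-2.28, and -1.93 on its other probe set). Among drivers of the G1/S step, the transcription factor Myc had 36.4, 303, 459.9 and 149.8 (-1.27) and the E2F partner Tfdp1 683, 1087, 911 and 407 (-1.04), the 2 of 16 measured members at least 2-fold lower. Cyclin D1 (Ccnd1), which couples growth signals to the cycle, stayed high at 4553, 6318, 6381 and 5647 (-0.17, with -0.69 on a second probe set). Wee1, a kinase that restrains Cdk1, was 1129, 1098, 1406 and 280.2, near its day 0 signal until day 2 and lower on day 5 (-2.07).

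Among the members that passed the filter, those raised on day 1 can be picked by days 0 and 1 alone. The signals of days 2 and 5 had still helped decide which members passed. A member high on day 2 could thus enter the split, which favours decreases, and this was not tested. Of the mitosis list, 8 members were at least 2-fold higher on day 1 than on day 0, and 8 of these were lower on day 5 than on day 2, 5 of them at least 2-fold, with a median of -1.59. The other 20 members had a median of -0.34, 12 of them lower. Of the DNA replication list, 6 members were raised on day 1 in this way, and 6 were lower on day 5 (median -0.83), against 12 of 17 others (median -0.47). This split was made after the values had been seen, and it is a description without a test.

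In MET KO + EGFRi liver the leading genes had another course. Mad2l1 was 202, 376, 56.4 and 432 on days 0, 1, 2 and 5 there, Ccnb2 35.1, 174, 163 and 422 and Rrm2 603, 1967, 899.5 and 2613. Each was at least 2-fold higher on day 5 than on day 2 in that arm, and on day 5 each was above its control signal. The day 2 signal of Mad2l1 there was below the lower quartile of that array (71.3), so its difference rests on a reading near the floor. The mitosis list had a median difference of 0.12 there and DNA replication 0.098, with 18 of 28 and 13 of 23 members higher against 51.3 percent of all genes. In 14 mitosis members and 11 replication members the signal was lower on day 5 in control and higher in MET KO + EGFRi, and 6 and 7 members were lower in both arms. Thymidine kinase Tk1, which salvages a DNA precursor, is one of the latter, with differences of -0.67 and -0.79. With 1 array per arm and day the difference between the arms was not tested.

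**Figure D2:**
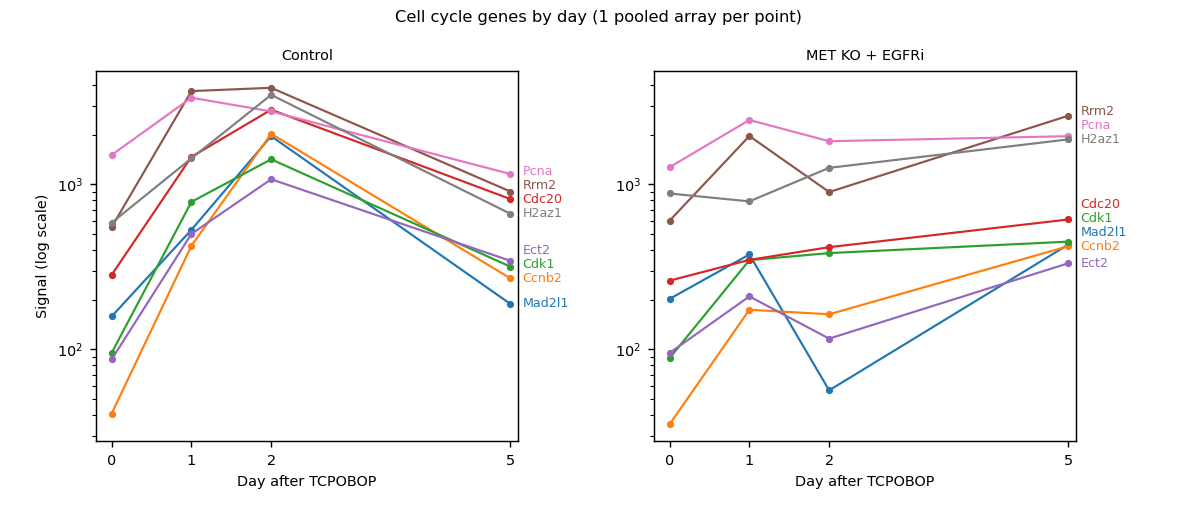
Signal (log axis) of 8 cell cycle genes against day after TCPOBOP in control (left) and MET KO + EGFRi liver (right), 1 pooled array per point. In control the genes peak on day 1 or 2 and are lower on day 5, whereas in MET KO + EGFRi Mad2l1, Ccnb2 and Rrm2 are higher on day 5 than on day 2.

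Genes of ribosome production, which growing cells raise, were also lower on day 5, in 17 of 19 measured members (median -0.37). Nop2, a methyltransferase of ribosomal RNA, had 417, 443, 464 and 125 (-1.45), and nucleolin (Ncl), the main protein of the nucleolus, 1911, 1995, 2715 and 1254 (-1.07, and -1.41 on a second probe set). For both, day 5 was the lowest of the 4 control arrays. The inhibitor of cyclin-dependent kinases Cdkn1a (p21) was flat at 684, 634, 743 and 712, while the related inhibitor Cdkn1c was 231 on day 2 and 62.3 on day 5 (-1.18). Mdm2, which degrades p53, had 1037, 1033, 1366 and 606 (-1.09, with 0.16 on a second probe set).

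The CAR-induced enzymes of phase I, which oxidise drugs, differed little between days 5 and 2. None of the 18 measured members differed 2-fold between days 5 and 2, with differences from -0.78 to 0.67. Besides Cyp2b10 (difference 0.42), Cyp2c55 had 788, 36847, 23337 and 33252 on days 0, 1, 2 and 5 (0.51), the carboxylesterase Ces2a 5230.1, 46618, 37523 and 59664 (0.67) and Cyp2c54 8259, 34781, 24823 and 38166 (0.62). In each of these 4 genes the signal was far above day 0 on day 1, lower on day 2 and higher again on day 5. Another probe set of Cyp2b10 had no dip on day 2, with 140.8, 34638, 34811 and 37812 (0.12). The highest signal of the array was also lower on day 2 and higher on day 5 (59925, 49857 and 77723 on days 1, 2 and 5). The part of the scale in this course was not tested. Of the 18 members, 11 were at least 2-fold higher on day 2 than on day 0, and all 11 were still so on day 5. Others had not been raised, such as Cyp2c38, with 4973, 2560.2, 2855 and 1628 (-0.78), and Cyp2c39, with 1147, 838, 1086 and 658 (-0.67), both at their lowest control signal on day 5. The list's median was 0.22, with 14 of 18 members higher, but -0.11 after quantile normalization, with 5 of 18 higher, so that its direction depends on how the arrays are scaled. Alas1, the first enzyme of haem synthesis that supplies these P450s, went the other way with 13451, 28239.6, 19269 and 11259.8 (-0.77, and -1.17 on its other probe set). Cyp3a44 had a short course with 217, 5544, 1155 and 205 (-2.15), back at its day 0 signal on day 5.

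Enzymes of conjugation and transporters, the phase II list, split. Of 21 measured members 10 were higher and 11 lower (median -0.11), and 2 were at least 2-fold lower. These were the glutathione transferase Gstm2, with 2725, 9654, 14013 and 6589 (-1.08), and Abcc2, the pump that exports conjugates into bile, with 2128, 3933, 6076 and 2942 (-1.03). The sulfotransferase Sult3a1 (1697, 5942, 3278 and 1611, difference -0.99) and Ugdh, which makes the glucuronic acid donor (6799, 14467, 16833 and 9721, -0.79), also had lower signals on day 5. Gstm3 was 6050.3, 40114, 34571 and 56624 (0.71, with -0.21 on its other probe set), and Abcc4, an export pump of the blood side, held its raised signal at 26.1, 629, 1282 and 1384 (0.10). The receptor gene Nr1i3 itself was 3141, 2065, 1784 and 1887, lower on day 2 and day 5 than on day 0 and about equal on both.

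**Figure D3:**
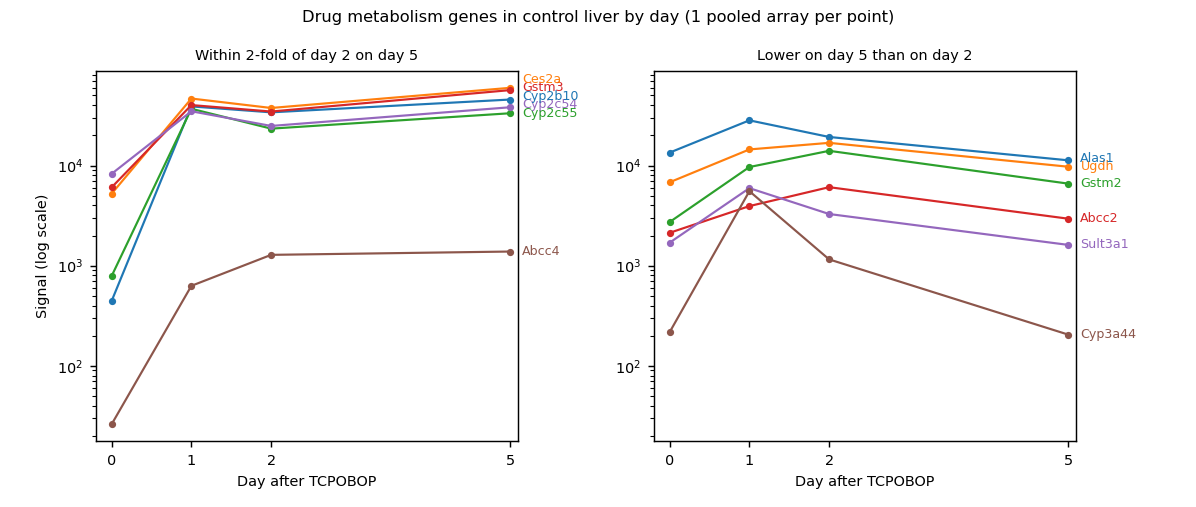
Signal (log axis) of 12 drug metabolism genes in control liver against day after TCPOBOP, 1 pooled array per point. The 6 genes on the left keep their raised signal on day 5, and the 6 on the right are lower on day 5 than on day 2.

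Of the 313 genes at least 2-fold higher on day 2 than on day 0, 158 were held on day 5, within 2-fold of day 2 and still 2-fold above day 0, and 48 were transient, at least 2-fold lower on day 5 than on day 2. Another 104 lay between, and 3 (Hao2, Hapln4 and Shh) were at least 2-fold higher still. Further held genes were the sphingomyelinase Smpd2, with 123, 1258, 1732 and 1776, and the chemokine Ccl9, with 3415, 18704, 24564 and 16613 (-0.56, and -1.24 on its other probe set). Of the 331 genes at least 2-fold lower on day 2 than on day 0, 63 were held, 147 transient and 117 between, and 4 (Acot3, Fam102a, Rdh16f2 and Slco1a1) were lower still. Held decreases included Hamp2, a relative of the iron hormone hepcidin, with 15567, 3745, 3345 and 5266, the retinol dehydrogenase Rdh9, with 3954, 424, 727 and 376, and Cyp4f14, with 9442, 5315, 2267 and 2964. The adenylate kinase Ak4 had 6876, 2181, 1913 and 1306 and the glutamyl transferase Ggt5 2307, 893, 392 and 849. These counts share the day 2 array, so that an error of that array would count as a transient difference.

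A choice of genes by day 1 is free of that link, except that day 2 had a part in the filter on signal. Of 312 genes at least 2-fold higher on day 1 than on day 0, 263 (84.3 percent) lay within 2-fold between days 5 and 2, 29 (9.29 percent) were lower and 20 (6.41 percent) higher on day 5, against 2.21 and 2.77 percent of all genes. Of 275 genes lowered on day 1, 219 (79.6 percent) lay within 2-fold, 38 (13.8 percent) were higher and 18 (6.55 percent) lower. Genes that had responded on day 1 were thus counted more often than all genes in both directions, and more so in the direction back towards day 0.

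Late decreases, which appear on day 5 alone, made up 109 genes that had stayed within 2-fold of day 0 on days 1 and 2 and were at least 2-fold lower on day 5 than on days 0 and 2. Late increases made up 31. Among the late decreases, the deadenylase nocturnin (Noct), whose RNA cycles daily in liver, had 3468, 5174, 2973 and 707 (-1.97), and the snail family factor Snai3 381, 803, 760.5 and 111 (-2.19). Acsm3, a mitochondrial acyl-CoA synthetase, had 1604, 786, 1429 and 305 (-2.00) and the chemokine Ccl5 423, 304, 712 and 134 (-1.93). Day 5 was the lowest control signal in each of these.

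Several outputs of the circadian clock were lower on day 5. The clock is a loop of transcription factors that gives liver genes a daily rhythm, and Dbp and Tef are factors under its direct control. Dbp had 5908, 4935, 5226 and 1639.7 (-1.63, and -1.91 on its other probe set), and the deubiquitinase Usp2 had 2955, 1304, 1938 and 501 (-1.81, and -0.93). The repressor Nr1d2 was 3864, 4130.1, 4018 and 1845 (-1.09) and Ciart, another repressor of the loop, 151, 129, 357 and 127 (-1.11). These 4 of 18 measured members were at least 2-fold lower and none was 2-fold higher, and the median was -0.39 with 12 members lower. Tef (4908 and 2696, difference -0.85) and Per1 (658 and 342, -0.82) were also lower. The E-box CACGTG, through which the clock's activators bind, was in the promoter windows of 4 of 16 members and of 6.86 percent of all genes. The hour of harvest is not given in the labels, and its part in these values was not tested.

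Genes of fatty acid breakdown under the nuclear receptor PPARA, which fasting switches on in liver, were lower in 18 of 24 measured members (median -0.20). The receptor gene Ppara itself had 3732, 2280.3, 2795 and 867 (-1.61), and each of its 3 probe sets was at least 2-fold lower. The acyl-CoA thioesterases Acot1, with 1108, 203, 888 and 174 (-1.97), and Acot3, with 6269.9, 516, 3024 and 1175 (-1.31), were lowest on days 1 and 5 and higher on days 0 and 2. Angptl4, a secreted inhibitor of lipoprotein lipase, had 2548, 2411, 4081 and 1795 (-1.15). Pex11a, which multiplies peroxisomes and lies outside the list, had 4883, 2889, 4376 and 2062 (-1.06, and -1.18 on its other probe set). The hormone Fgf21 went the other way at lower signals, with 301, 534, 146 and 694 (1.82).

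In MET KO + EGFRi, 1 of the 24 members of this list was higher on day 5 than on day 2, with a median of -0.44. Ppara had 3007, 1601, 2976 and 1193 there (-1.27) and Acot1 477, 88.3, 421 and 161 (-1.09). The clock list had a median of -0.33 in that arm, with Dbp at 1278, 1799, 5211 and 3025 (-0.77). Feeding state and hour of harvest were not recorded in the labels and were not tested.

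Heat shock genes, which code for chaperones, were lower in 12 of 14 measured members (median -0.27). Hspa1b, the inducible HSP70, had 2389, 1732, 4874 and 1359 (-1.79), with each of its 3 probe sets at least 2-fold lower, and Hsp90aa1 3641, 7355, 7066 and 3512 (-0.99). Among chaperones of the endoplasmic reticulum, Hsp90b1 had 6126, 10844, 10316 and 3901 (-1.39). Trib3, a target of the stress factor ATF4, was 520.1, 728, 731 and 1536 (1.00).

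The late increases were led by Rsad2 (viperin), an antiviral protein induced by interferon, with 594, 619.9, 853 and 4423 (2.28), on day 5 the highest of all 8 arrays. All 3 of its probe sets were at least 2-fold higher. Interferon-stimulated genes were higher in 17 of 18 measured members (median 0.48, and 0.51 after quantile normalization), with Rsad2 the 1 member past 2-fold. The GTPases Igtp and Ifi47 had 2694, 1607, 2046 and 3585 (0.79) and 870.0, 1652, 1782 and 3113 (0.78), and the interferon regulator Irf7 2731, 1472, 1539 and 2470.5 (0.66). Igtp and Irf7 had been lower on days 1 and 2 than on day 0, whereas Ifi47 was higher at each later day.

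Ndrg1, a gene induced by low oxygen and by cell differentiation, had 669, 1170.2, 1019 and 3339.5 (1.65), and all 5 of its probe sets were at least 2-fold higher on day 5. In MET KO + EGFRi it was 769.5, 892, 666 and 979 (0.51). Cyp26a1, which degrades retinoic acid and is induced by it, was already above day 0 on day 1 and highest on day 5, with 1004, 3563, 1719 and 10626 (2.58). It was higher on day 5 than on day 2 in MET KO + EGFRi too, with 773, 2991, 3862 and 6453 (0.73). The protease Mmp7 (matrilysin) was 124, 632, 108 and 1316 (2.95) in control. The MET KO + EGFRi signals of Mmp7 were 115, 120.4, 108 and 813 (2.31). Cyp26a1 and Mmp7 were more than 2-fold above day 0 on day 1 and are not counted as late increases. Late increases at weak signals included the tetraspanin Tspan15 (316, 258, 162 and 785), the potassium channel subunit Kcne4 (213, 240.3, 150.3 and 679) and the receptor Gpr12 (205, 209, 161 and 714). Tspan15 and Kcne4 had 1 probe set each, and of 3 for Gpr12 1 was at least 2-fold higher.

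Markers of Kupffer cells, the resident macrophages of liver, were higher in 14 of 15 measured members (median 0.62, and 0.65 after quantile normalization), 4 of them at least 2-fold. Clec4f, a lectin found on Kupffer cells, had 2129, 1359, 1879.6 and 4056 (1.08). The complement genes C1qa and C1qc had 1969, 1183, 1356 and 2917 (1.07) and 2239, 1277, 1280.3 and 2753 (1.06), and the pore protein Mpeg1 2012, 1229.9, 1054 and 2276 (1.06). In these genes day 5 lay above both day 1 and day 2 and also above day 0. The summed signal of the 15 markers was 37761, 26568, 31961 and 49248 on days 0, 1, 2 and 5. Endothelial markers were higher in 11 of 12 members (median 0.33), with summed signals of 11743, 9175, 9809.9 and 12605, and none was past 2-fold. Monocyte and neutrophil markers (median -0.08), lymphocyte markers (0.185, with 6 of 15 listed above the filter) and stellate cell markers (-0.15) had no member past 2-fold. In pooled tissue more cells of a type and more RNA per cell cannot be told apart, and the part of macrophage RNA in the interferon list was not tested.

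Signals at the upper end of the scale were higher on day 5 as a body. The 122 genes in the top 1 percent of mean signal had a median difference of 0.46, with 106 higher, and the strongest signal was 49857 on day 2 and 77723 on day 5. After quantile normalization their median was 0.072. Secreted hepatocyte proteins were higher in 19 of 19 members (median 0.59), with Alb at 37254, 50479, 42800.0 and 77082 (0.85), the fetuin Ahsg at 36153, 36778, 28858 and 52552 (0.86) and the haem carrier Hpx at 36957, 50528, 40989 and 70203 (0.78). After quantile normalization the list's median was 0.14. The elongation factor Eef1a1, a reference gene of similar strength, had 36578, 47289.5, 42339 and 61124 (0.53, and -0.09 after quantile normalization). Cyp2b10, Cyp2c55 and Ces2a of the phase I list had signals of the same range, and the part of the scale in differences below 2-fold was not tested beyond that normalization.

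Serine and one-carbon genes were higher in 11 of 14 members (median 0.52, and 0.43 after quantile normalization). Bhmt, which remethylates homocysteine, had 24389, 7944, 8479.8 and 16844 (0.98) and the folate enzyme Mthfd1 4572, 6553, 6021 and 10649 (0.81). Phgdh, the first enzyme of serine synthesis, had 2641, 3751, 944 and 5218 (2.38), but its second probe set above the filter gave -1.25. Acute phase proteins were higher in 19 of 25 members (median 0.33, and 0.23 after quantile normalization), with Saa2 2-fold higher at weak signals (104 and 427) and the metalloreductase Steap4 2-fold lower (2222 and 916).

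Lipid and sterol synthesis genes lay close to the median of all genes. Cholesterol synthesis (19 members, median 0.057) and fatty acid synthesis (20 members, median 0.048) had no member past 2-fold. The synthase Hmgcs1, which feeds the sterol pathway, had 8797, 24242, 14679.7 and 21571 (0.55), and the desaturase Scd1 38296, 36187, 36004 and 23062 (-0.64, and -1.31 on its other probe set). The sterol element TCACNCCAC was in the promoter windows of 1 of 15 cholesterol members and of 1.23 percent of all genes. In glucose metabolism glycogen synthase Gys2 was 2-fold lower, with 5745, 2978, 3226 and 1489 (-1.08). Respiratory chain subunits (median 0.014), proteasome subunits (-0.092) and pericentral genes (-0.009) also stayed near 0, without a member past 2-fold.

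Genes of the growth hormone axis and genes that differ by sex were lower on balance. One list joins growth hormone genes with male-biased genes, and of its 18 measured members 14 were lower and 4 higher (median -0.40). The urinary protein genes Mup3 (20468, 30231, 14326 and 5845, difference -1.28) and Mup10 (3099.5, 15723, 6501 and 2552, -1.32) belong to a family whose RNAs are alike. Elovl3 had the largest increase of the list, with 471, 1806, 1567 and 2738 (0.78). The transporter Slco1a1 had 1421, 1979, 393 and 148 (-1.09). Slco1a1 was at its lowest control signal on day 5. The growth hormone receptor Ghr had 7326, 5737, 6586 and 3500.2 (-0.90). Of 13 female-biased members 8 were lower (median -0.45), 3 of them at least 2-fold. These were Cyp3a44 and Acot3, given above, and the peroxisomal transporter Abcd2, with 878, 940.5, 1512 and 701 (-1.03, and -0.58 on its second probe set). The oxidase Hao2 was 2-fold higher and had its highest signal on day 5, with 1295, 885, 3486 and 7137 (1.02), as did Prom1, with 590.3, 2588, 2528 and 5019.6 (0.97).

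**Figure D4:**
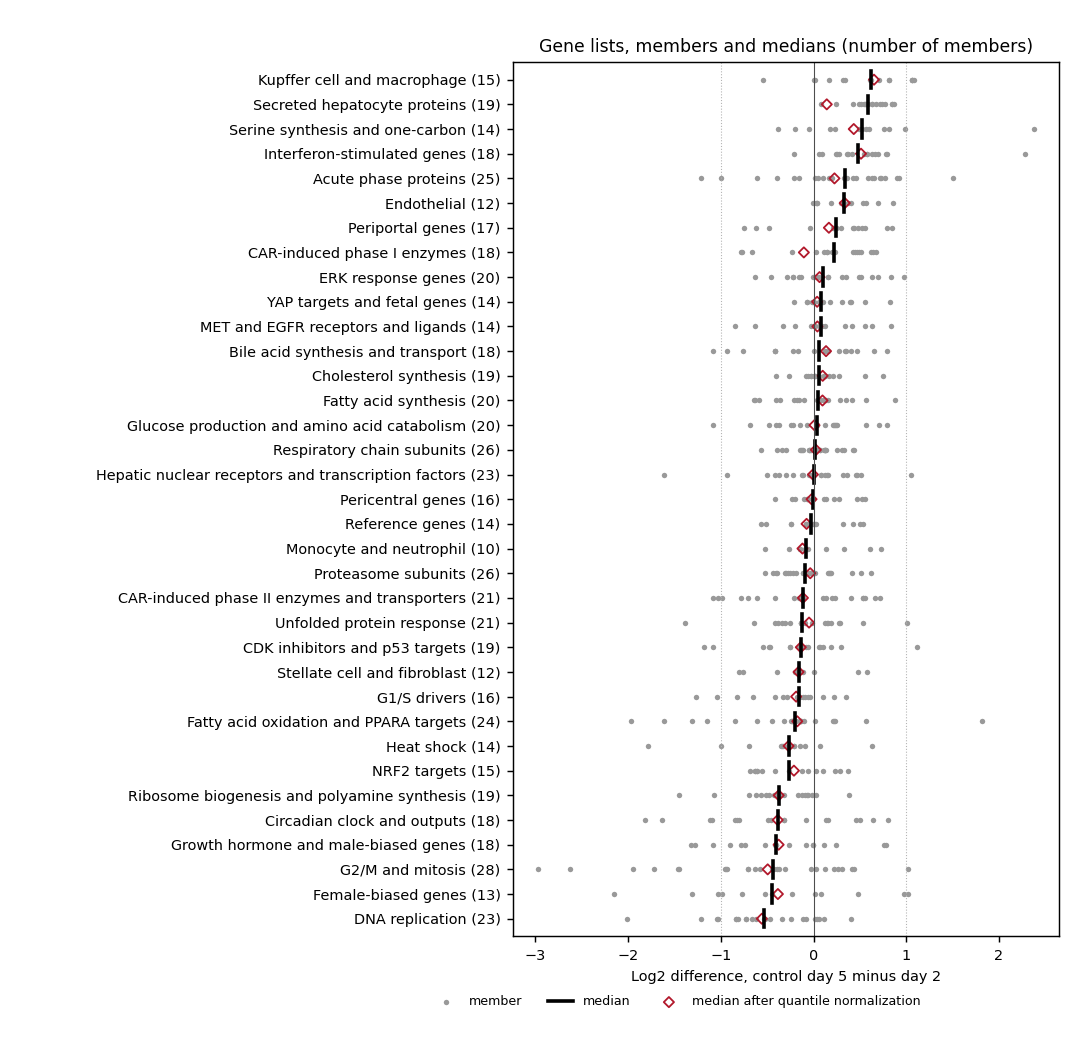
Log2 difference between day 5 and day 2 in control liver for the measured members (grey points) of each gene list with 10 or more of them, with the median (black bar) and the median after quantile normalization (red diamond). Dotted lines mark 2-fold, DNA replication has the lowest median and Kupffer cell markers the highest, and the secreted protein and phase I lists shift most with quantile normalization.

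Both receptors that the other arm targets, and the ligand of MET, were read in control as well. Met had 1444, 926, 1336 and 1149 (-0.20, and 0.48 on its other probe set). Egfr had 3018, 3539, 3497 and 2766 on the probe set of highest signal (-0.33), and of its 7 probe sets 1 was 2-fold higher and 1 2-fold lower on day 5. That ligand, Hgf, had 508, 224, 294 and 286 (-0.03). The feedback inhibitor of EGFR Errfi1 had 22992, 19679, 12621 and 8104 (-0.64, and -0.60 on its other probe set), lower at each later day.

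Most of the largest increases had another shape. Nrip2, a regulator of nuclear receptors, had 662, 1029, 50.0 and 1657 on days 0, 1, 2 and 5 (3.84). Fank1, a testis gene, had 1434, 951, 127 and 1199 (2.68), Ace, the angiotensin-converting enzyme, 523, 634, 53.4 and 706 (2.64), and Sox21 546, 225, 50.5 and 614 (2.50). The cilium gene Cfap61 had 748, 2113, 276 and 2020.2 (2.59, but 0.07 on its second probe set) and Pou5f2 1116, 603, 159 and 1271 (2.54). In these 6 genes day 2 was the lowest control signal. The day 2 signals of Nrip2, Ace and Sox21 were below the lower quartile of that array (64.5), so these differences rest on readings near the floor. Day 5 was within 2-fold of day 0 in Fank1, Ace, Sox21 and Pou5f2 and more than 2-fold above it in Nrip2 (1.24) and Cfap61 (1.35). On day 1 Fank1, Sox21 and Pou5f2 had been below day 0 as well. Of all 335 increases, the control day 2 array was the lowest of the 8 in 215 (64.2 percent), and 280 (83.6 percent) had a day 5 signal within 2-fold of day 0. Over all genes the day 2 array was lowest in 16.3 percent. Of the 268 decreases, day 5 was the lowest of the 8 arrays in 181 (67.5 percent), day 2 the highest in 105 (39.2 percent), and 134 (50.0 percent) had a day 5 signal within 2-fold of day 0. The choice of these genes raises those shares by itself.

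A second probe set for the same gene, read on the same arrays, gives a measure of the error of single probe sets. It cannot show an error of the pool or of the whole array, for which no replicate exists. Of 80 increases with a second probe set above the filter, 49 (61.3 percent) had it higher too, 5 of them at least 2-fold, with a median of 0.074. Of 77 decreases 59 (76.6 percent) had it lower, 15 at least 2-fold, with a median of -0.40. Over all 4377 genes with 2 or more probe sets the second had the same sign in 57.7 percent. In 188 of them (4.3 percent) it also differed at least 2-fold in that direction, against 6.25 percent of the increases and 19.5 percent of the decreases. Increases were thus matched by their second probe set, in sign and at 2-fold, about as often as all genes, and decreases more often. Fank1 (-0.092), Ace (-1.22) and Gprasp1 (-2.44 and 2.59) are examples where the second probe set lay near 0 or opposed the first. Mrpl52, a protein of the mitochondrial ribosome and the second largest decrease (2576 and 279.8, -2.92), had -0.36 on its second probe set.

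The increases past 2-fold on both probe sets, named after their values had been seen, were Rsad2, Ndrg1, the mannosyltransferase Pigz, the synaptic protein gene Cplx1 and Gm3764. Pigz was lowest on day 2, with 1114, 1298, 252 and 1599 (2.37 and 1.10), and Cplx1 had 2663, 1493, 1267 and 2974 (1.19 and 1.22). The 15 decreases included H2az1, Cdc20, Hspa1b, Dbp, Ppara, Ncl and Pex11a, described above. The others were led by the ribosome assembly kinase Riok2, with 515, 682, 664 and 217 (-1.35 and -1.55), and the alanine aminotransferase Gpt2, with 5871, 4931, 7015 and 2734 (-1.34 and -1.15). Hnrnpa2b1, an RNA-binding protein, had 2304, 2611, 3476 and 1489.5 (-1.19 and -1.02). For Riok2, Gpt2 and Hnrnpa2b1 day 5 was the lowest of all 8 arrays.

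**Figure D5:**
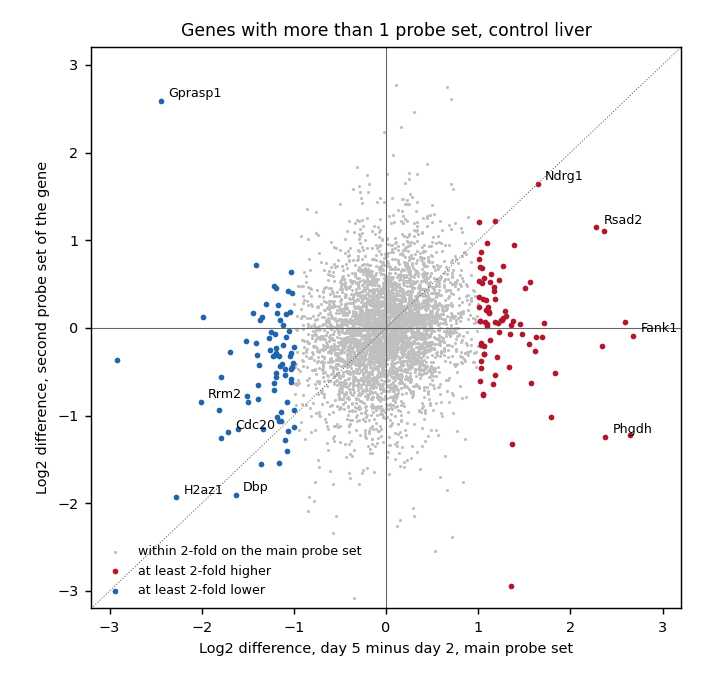
Log2 difference between day 5 and day 2 in control liver on a gene's main probe set (horizontal) and on its second probe set (vertical) for 4377 genes with more than 1 probe set above the filter. Genes at least 2-fold lower on the main probe set (blue, 77) lie mostly below 0 on the second, while those at least 2-fold higher (red, 80) scatter around 0 with Rsad2 and Ndrg1 among the few that are higher on both.

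The one test the design allows is whether day 5 and day 2 differ over both arms, with limma fitted on all 8 arrays with day and arm as terms and 3 residual degrees of freedom. It called 0 of 12112 genes (0.0 percent) at an adjusted p of 0.05, with a smallest Benjamini-Hochberg adjusted p of 0.67. At an unadjusted p under 0.05 it had 351 genes higher and 275 lower, 5.17 percent of those tested. Among the genes named above, Ppara averaged -1.44 over both arms with a standard error of 0.24 (limma adjusted p = 0.67) and Acot1 -1.53 with 0.29 (0.837). Mmp7 had 2.63 with 0.45 (0.67), Cyp26a1 1.66 with 0.39 (0.897) and Trib3 1.15 with 0.20 (0.67). All 5 went the same way in both arms, and none passed the threshold. Cell cycle genes that went opposite ways in the arms averaged closer to 0, such as Ccnb2 at -0.78 and a standard error of 0.75 (limma adjusted p = 0.912).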

How the data were processed

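The deposited intensity values, 1 linear signal per probe set and array, were made by the authors with MAS5, per the submitters' processing notes. Trimming 2 percent at each end leaves a mean of 500 in each array, as the values show. Each of the 8 Affymetrix mouse arrays took 6 µg of pooled RNA, per the labels. The version of MAS5 and its detection calls are not given in the sources used here.

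Here 71, the lower quartile of the signals, was added before log2. The platform's table gave a single gene for 34945 of 45037 probe sets (without 64 controls), several for 932 and none for 9160. Each gene was represented by its strongest probe set on average, kept from a mean log2 of 8.24 upwards, which is the median over probe sets. The second probe set is the next strongest above the same filter. Names ending in _s_at or _x_at mark probe sets that may bind relatives. The number of arrays, 1 per group, limits the precision. limma (3.58.1, R 4.3.3) fitted day and arm over all arrays with a variance trend and Benjamini-Hochberg adjustment, and it was tested on simulated data. Its p-values rest on the spread left after day and arm. With 1 array per arm and day, that spread mixes noise between pools with differences between the arms in course.

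The comparison, the 40 gene lists, built from textbook knowledge, and the rules were chosen with earlier results of these data known. Genes named were the 15 largest differences each way among genes whose higher signal reached its array's upper quartile, up to 6 per list and 6 per class, and Cyp2b10, Nr1i3, Ccnd1, Myc, Foxm1, Cdk1, Mki67, Cdkn1a, Met, Egfr and Hgf. Others are said to be named after their values were seen, as were Cenpa, Pttg1 and Pex11a. Promoters came from a RefSeq table (GRCm38.p6). Alternatives were the pseudocount, filter, choice of probe set, scaling, variance trend, and leaving out each array.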

Additional observations from a re-analysis of the deposited data

Results flagged for a closer look

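Among the 15 largest differences each way in control liver, 7 genes moved at least 2-fold in opposite directions between days 5 and 2 in the 2 arms, with 1 array per arm and day, and the difference between the arms was not tested. The mitotic genes Mad2l1 and Ccnb2 and the DNA precursor gene Rrm2 were lower on day 5 in control (-2.97, -2.63 and -2.01) and higher in MET KO + EGFRi, by log2 differences of 1.98, 1.07 and 1.47. The difference of Mad2l1 in MET KO + EGFRi rests on a day 2 signal near the floor (56.4). The other 4 were higher in control and lower in MET KO + EGFRi. Nrip2 had 3.84 and -2.98, Erdr1 2.89 and -1.07, Cfap61 2.59 and -1.24, and Phgdh 2.38 and -1.24. On days 0, 1, 2 and 5 the control signals of Erdr1 were 258, 685, 189 and 1851. Those of MET KO + EGFRi were 149, 133, 518 and 209, on a probe set that may bind relatives. Day 2 was the lowest control signal in each of these 4 genes.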

How the results depend on the processing

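Counts of genes depended on how weak signals were treated. The 335 increases and 268 decreases of 2-fold became 131 and 120 with the median of all values as pseudocount, 710.0 and 515 without a filter, 132 and 110.0 with a filter at the upper quartile, and 186 and 144 with the mean of a gene's probe sets. In the same 4 settings the 48 transient increases became 23, 122, 26 and 29, the 158 held increases 90.0, 239, 97 and 101, and the 31 late increases 12, 125, 16 and 17. The 147 transient decreases became 52, 268, 54 and 75, and 239 without a pseudocount. The 109 late decreases became 38, 179, 34 and 55, and the 63 held decreases 40.0, 203 and 30.0 in the first 3. The other settings, quantile normalization, centring and leaving out probe sets that bind related RNAs, kept these counts within 1.5 times, as did the day 1 array in place of day 2 (276 and 224), chosen after seeing the data. limma called 0 genes in every alternative and with each array left out.

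Of 310 list medians under alternatives, 4 turned sign. The phase I list had -0.105 after quantile normalization, and with the upper quartile filter the mitosis list had 0.22, ERK response genes -0.16 and lymphocyte markers -0.572. Of single genes, quantile normalization turned B2m (-0.055), Cyp3a11 (-0.038) and Eef1a1 (-0.09). The mean of probe sets turned Esr1 (0.271), Gprasp1 (0.072), Lyve1 (-0.008), Met (0.14), Pck1 (0.009), Psmb1 (0.069), Psmd2 (-0.474), Slc25a25 (-0.176), Slco1b2 (-0.217) and Txnrd1 (0.072). Leaving out probe sets that bind related RNAs turned Cd8a (0.282), Gstm3 (-0.211), Hnf4a (-0.652), Lrig1 (0.258), Lss (0.342) and Ywhaz (0.302), and no pseudocount turned Lyve1 (-0.505). The cause was not tested. No paired analysis was possible because each group has 1 array and no replicate number, and arm was a term in the fit over both arms.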
